A study of Rattus norvegicus with 23 samples.

Results

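The comparison described here set 10 d against 3 d after splitting in rat PC12 cells that stably express α1ACT, the late culture step of that line. Its libraries were chosen by their labels alone: 3 of 10 d and 3 of 3 d, 6 of the 23 small RNA libraries of the study. PC12 comes from a rat tumour of the adrenal medulla, makes catecholamines and can take on neuron-like features. α1ACT is a transcription factor encoded by the calcium channel gene CACNA1A. In the α1ACT line it carried a 3xFlag tag and 11 glutamines and was expressed from pcDNA3, and the vector line, used here for comparison, carried empty pcDNA3. Both lines had been selected with G418, grown in serum on poly-L-lysine, and sampled at 6 h, 24 h, 3 d and 10 d. The α1ACT columns are named WT and the vector columns control in the deposited table, and reading WT as the α1ACT line is an assumption that rests on its repeat of normal length. The sources used here do not give the number of clones behind a line, nor whether replicates were separate cultures. The p-values therefore reflect how far these samples scatter, and that scatter may be technical.

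MicroRNAs are short RNAs cut from hairpin precursors by the Microprocessor complex and Dicer. One hairpin gives a 5p and a 3p arm, and the arm loaded into an Argonaute protein guides it to mRNAs that pair with the seed, bases 2 to 8. Members of a family share a seed, and members of a cluster come from 1 primary transcript. Growing cultures are known for high miR-17-92 levels, and several families, among them miR-29 and miR-15/16, are known to hold back growth or matrix genes.

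The sequences below are RefSeq's mature rat miRNAs (table of build GRCr8), written 5′ to 3′ with the seed in capitals. The first set is a choice among the miRNAs that rose between 3 d and 10 d, each with a seed of its own in this set.
miR-153-3p: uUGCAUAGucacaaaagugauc
miR-338-3p: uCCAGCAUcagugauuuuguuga
miR-210-5p: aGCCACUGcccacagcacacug
miR-362-3p: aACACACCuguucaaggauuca
miR-192-5p: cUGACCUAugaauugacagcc
miR-22-3p: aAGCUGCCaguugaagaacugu

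The second set is a choice among the miRNAs that fell. miR-25-3p is shown because it has the seed of miR-92a-3p and fell with it.
miR-92a-3p: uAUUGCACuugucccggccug
miR-25-3p: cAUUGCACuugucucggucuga
miR-484: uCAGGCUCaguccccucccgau
miR-324-3p: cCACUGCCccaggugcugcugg
miR-760-3p: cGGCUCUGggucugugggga

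The third set shows families by seed. The miR-29 3p arms and the miR-450 5p arms rose together, while members of the other 3 seeds moved in opposite directions.
miR-29a-3p: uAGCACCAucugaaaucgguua
miR-29b-3p: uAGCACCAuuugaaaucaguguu
miR-29c-3p: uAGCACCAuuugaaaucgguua
miR-450a-5p: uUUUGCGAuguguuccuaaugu
miR-450b-5p: uUUUGCGAuguguuccuaaua
miR-30a-5p: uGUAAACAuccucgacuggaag
miR-30e-5p: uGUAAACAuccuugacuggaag
miR-322-5p: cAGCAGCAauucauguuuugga
miR-497-5p: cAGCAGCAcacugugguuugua
miR-16-5p: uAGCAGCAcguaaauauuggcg
miR-193a-3p: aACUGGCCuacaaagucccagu
miR-193b-3p: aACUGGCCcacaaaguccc

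Between 3 d and 10 d, 88 of the 269 miRNAs with enough counts to be tested changed in the α1ACT line (32.7%), 45 higher (16.7%) and 43 lower (16%), in the quasi-likelihood test of edgeR at a Benjamini-Hochberg adjusted p under 0.05, which is what "called" means here. Among the increases were miR-153-3p, miR-338-3p, the p53-induced miR-192-5p, 4 of the 6 tested arms of the miR-29 family and the 5p arms of miR-450a and miR-450b. Among the decreases were miR-92a-3p and other products of the miR-17-92 clusters and their paralogs, with miR-423-3p, miR-328a-3p and miR-484. Most changes were modest: called miRNAs had a median size of change of 0.63 on the log2 scale, or 1.55-fold, 39 changed by less than 1.5-fold, and 16 by at least 1 on the log2 scale (7 higher, 9 lower). The libraries of 3 d and 10 d did not overlap for 136 of the 269 miRNAs (50.6%), 71 with 10 d higher (26.4%) and 65 with 10 d lower (24.2%), nor for 86 of the 88 called. At an unadjusted p under 0.05 there were 116. The split was 59 higher and 24 lower with upper-quartile factors, which moved the median log2 fold change of all miRNAs from 0.0069 to 0.128. With another filter it was 24 higher and 54 lower, when only miRNAs averaging 10 CPM or more were fitted (counts scaled to a common library size, with factors from TMM, the trimmed mean of M-values). Of the 88, 70 were tested in all 18 alternative settings and each of the others in at least 16. None changed sign in a setting that tested it, 31 were called in every setting that tested them, and 44 in each of the 6 fits that leave out 1 library. All levels are shares of the miRNA counts of a library, so they show changes relative to the other miRNAs.

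Total counts of the 6 libraries ran from 2021036 to 5070120. The 10 most abundant miRNAs of a library took 71.6% ± 1.03 (SD, n = 3) of its counts at 3 d and 72.2% ± 0.264 at 10 d. The median coefficient of variation over the 222 miRNAs with at least 10 CPM was 10.4% at 3 d and 9.24% at 10 d. The library of 3 d replicate 1 stood somewhat apart: of 127 miRNAs with at least 100 CPM, 5 were more than 1.5-fold below both other replicates there. One of these was miR-10b-5p, a product of a Hox locus, at 65705, 115833 and 131149 CPM at 3 d and 94430, 126188 and 111643 CPM at 10 d. Its log2 fold change was 0.09 (SE 0.177, adjusted p = 0.712), and it was -0.16 without that library.

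The increases were led, among miRNAs with at least 10 CPM, by miR-362-3p and miR-210-5p. miR-362-3p, from a cluster within the chloride channel gene Clcn5, was at 10.7, 13.9 and 12.6 CPM at 3 d and at 28.9, 32.2 and 24.6 CPM at 10 d. Every library of 10 d lay above every one of 3 d, by a fitted 2.31-fold (log2 fold change 1.21, SE 0.247, adjusted p = 0.000546). miR-210-5p, the star arm of a hypoxia-induced hairpin, was at 64.5, 59.4 and 72.8 CPM at 3 d and at 125, 160 and 155 CPM at 10 d, 2.24-fold higher (log2 fold change 1.16, SE 0.202, adjusted p = 0.000134). The groups were again apart. Its abundant partner miR-210-3p, the arm usually measured as a hypoxia marker, was at 4651 ± 188 CPM and 5137 ± 288 CPM, with a log2 fold change of 0.14 (adjusted p = 0.404).

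miR-153-3p, a brain-enriched miRNA encoded within Ptprn2, doubled. It was at 117, 117 and 130 CPM at 3 d and at 233, 234 and 262 CPM at 10 d, with a log2 fold change of 1.00 (SE 0.129, adjusted p = 1.58e-06). miR-338-3p, encoded within Aatk and known from oligodendrocytes and neurons, was at 355, 326 and 370 CPM at 3 d and at 601, 751 and 616 CPM at 10 d. All 3 later libraries were above the earlier ones, by 1.87-fold (log2 fold change 0.90, SE 0.135, adjusted p = 1.08e-05). miR-192-5p, a p53-induced miRNA, was at 3229, 3423 and 3597 CPM at 3 d and at 5616, 5287 and 5290 CPM at 10 d, 1.58-fold higher (log2 fold change 0.66, SE 0.0896, adjusted p = 2.66e-06). Among the abundant miRNAs, miR-22-3p rose from 55057, 51433 and 52060 CPM to 77742, 73295 and 78055 CPM, 1.44-fold (log2 fold change 0.53, SE 0.109, adjusted p = 0.000546). These 4 had no overlap between 3 d and 10 d.

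The other 8 of the 12 largest increases were miR-29c-5p, miR-141-3p, miR-21-3p, miR-450b-5p, miR-1843b-5p, miR-29b-3p, miR-450a-5p and miR-879-5p, with log2 fold changes from 0.68 to 1.00. Of the 12, 8 were called in each fit that leaves out 1 library. miR-141-3p, at 7.74 ± 1.58 CPM and 15.3 ± 1.12 CPM, was called in 1 of those 6 fits (adjusted p up to 0.112). miR-21-3p and miR-879-5p lost the call without 3 d replicate 1 (adjusted p = 0.0513 for each) and without 10 d replicate 2 (0.0797 and 0.0837). miR-1843b-5p lost it without 3 d replicate 2 (0.177), 10 d replicate 1 (0.122) and 10 d replicate 2 (0.0756). miR-21-5p, the main arm of the growth-linked miR-21, had a log2 fold change of 0.18 (adjusted p = 0.176), against 0.93 for miR-21-3p (adjusted p = 0.0106).

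**Figure D1:**
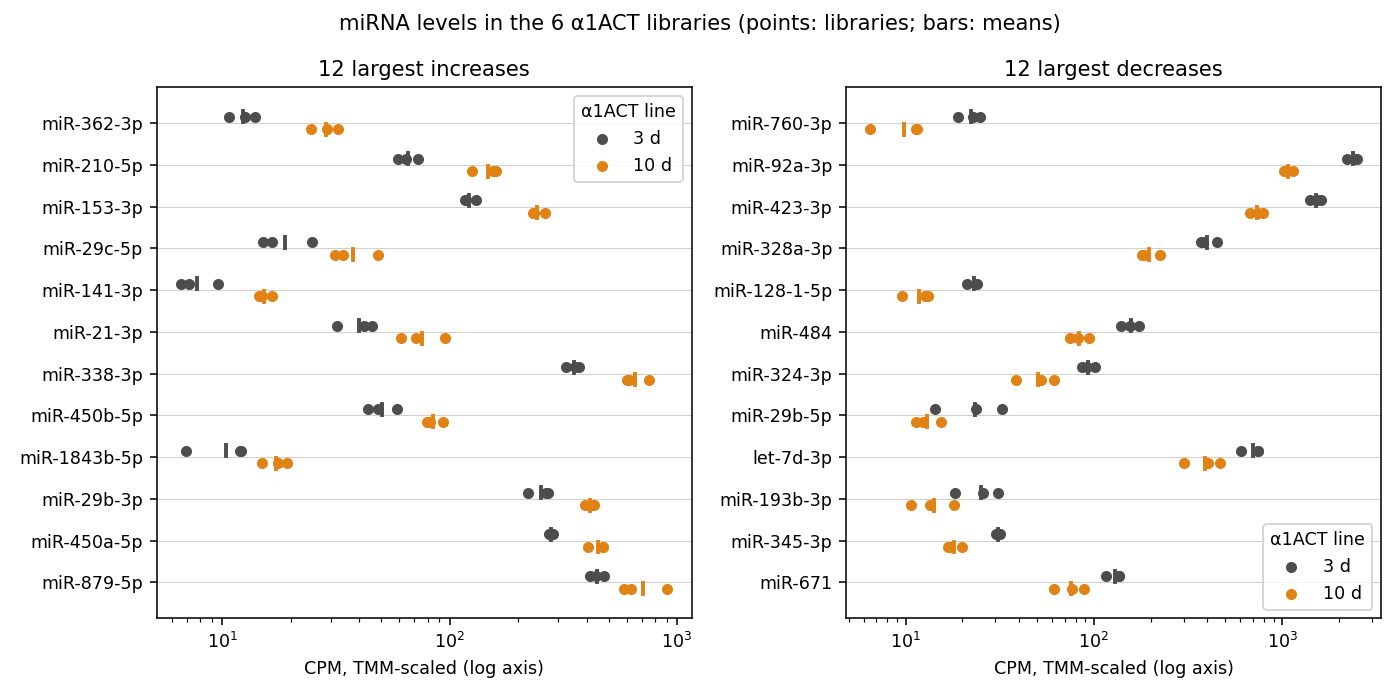
Levels of the 12 largest increases (left) and 12 largest decreases (right) among miRNAs with at least 10 CPM, on a log axis in CPM. Grey points are the 3 libraries of 3 d, orange points the 3 of 10 d, and short bars their means; the groups overlap only for miR-29b-5p.

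The decreases were led by miR-760-3p and miR-92a-3p, followed by miR-423-3p and miR-328a-3p, each less than 0.5 times its level of 3 d. miR-92a-3p, made by the miR-17-92 cluster and by a paralog on the X chromosome, was at 2203, 2421 and 2490 CPM at 3 d and at 1140, 1066 and 1017 CPM at 10 d. The groups were far apart, and the fitted level was 2.21-fold lower (log2 fold change -1.14, SE 0.12, adjusted p = 5.02e-08). miR-423-3p was at 1611, 1537 and 1414 CPM at 3 d and at 790, 676 and 740 CPM at 10 d, 2.07-fold lower (log2 fold change -1.05, SE 0.112, adjusted p = 5.02e-08). Its other arm, miR-423-5p, was at 1213 ± 100 CPM and 1024 ± 84.8 CPM, a log2 fold change of -0.24 that did not pass the test (adjusted p = 0.19).

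miR-328a-3p was at 451, 369 and 378 CPM at 3 d and at 224, 181 and 184 CPM at 10 d, 2.03-fold lower (log2 fold change -1.02, SE 0.134, adjusted p = 1.67e-06). miR-760-3p, a rarer miRNA, was at 24.9, 19.1 and 22.8 CPM at 3 d and at 11.3, 6.51 and 11.6 CPM at 10 d (log2 fold change -1.18, SE 0.298, adjusted p = 0.00388). No library of 10 d reached the lowest of 3 d in either case. miR-484, whose precursor is a short transcript end that bypasses Microprocessor, was at 140, 174 and 156 CPM at 3 d and at 82, 93.7 and 75.2 CPM at 10 d, 1.87-fold lower (log2 fold change -0.90, SE 0.147, adjusted p = 3.7e-05). miR-324-3p was at 101, 86.7 and 92.1 CPM at 3 d and at 52.3, 38.7 and 61.2 CPM at 10 d, 1.84-fold lower (log2 fold change -0.88, SE 0.178, adjusted p = 0.000505). Both were again without overlap.

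The other 6 of the 12 largest decreases were miR-128-1-5p, miR-29b-5p, let-7d-3p, miR-193b-3p, miR-345-3p and miR-671, with log2 fold changes from -0.94 to -0.77. Of the 12, 9 were called in each fit that leaves out 1 library. miR-29b-5p was the single one whose groups overlapped, at 32.5, 14.3 and 23.8 CPM against 11.3, 12.4 and 15.4 CPM. It lost the call without 3 d replicate 1 (log2 fold change -0.56, adjusted p = 0.194), 3 d replicate 3 (0.0568), 10 d replicate 1 (0.1) or 10 d replicate 2 (0.0765). miR-193b-3p lost it without 3 d replicate 1 (0.123), 3 d replicate 3 (0.0586), 10 d replicate 2 (0.119) or 10 d replicate 3 (0.0648), and miR-345-3p without 10 d replicate 1 (0.0517).

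Several of the most abundant miRNAs moved by small steps. Of the 10 with the highest mean, 4 were called: miR-22-3p and miR-30a-5p higher, miR-375-3p and miR-16-5p lower. The other 6 had log2 fold changes between -0.11 and 0.17, among them miR-27b-3p at 124809 ± 19579 CPM and 116022 ± 5059 CPM (log2 fold change -0.11, adjusted p = 0.437). miR-375-3p, the defining miRNA of endocrine cells, had the highest level in each of the 6 libraries, at 180258, 157426 and 169827 CPM at 3 d and at 146269, 138657 and 142498 CPM at 10 d. Its fall was 1.19-fold (log2 fold change -0.25, SE 0.0896, adjusted p = 0.0338) without overlap, and it was called in 1 of the 6 fits that leave out 1 library (adjusted p up to 0.123).

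In the miR-29 family, known for repressing collagen and other matrix genes, 4 of 6 tested arms rose and 1 fell, with a median log2 fold change of 0.64 against 0.0069 over all miRNAs. Over all 269 miRNAs 16.7% were called higher and 16% lower. miR-29b-3p was at 269, 265 and 220 CPM at 3 d and at 424, 394 and 430 CPM at 10 d, 1.65-fold higher (log2 fold change 0.72, SE 0.143, adjusted p = 0.000418). miR-29a-3p was at 4282, 3628 and 3487 CPM against 5640, 4992 and 5060 CPM, 1.38-fold higher (adjusted p = 0.00715). miR-29c-3p was at 1759, 1311 and 1247 CPM against 2187, 2020 and 2115 CPM, 1.46-fold higher (adjusted p = 0.00677). None of the 3 overlapped. The mature sequences of miR-29a-3p and miR-29c-3p differ by 1 edit, so the counting could have split reads between them. The arm that fell was miR-29b-5p, here the product of the Mir29b2 hairpin, while miR-29b-3p comes from Mir29b1 and Mir29b2.

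The cluster of miR-322, miR-503, miR-351, miR-450 and miR-542, an X-linked cluster known from differentiating muscle, had 4 of 9 arms higher and 0 lower (median log2 fold change 0.25). The shares over all 269 miRNAs were 16.7% and 16%. miR-450a-5p was at 272, 279 and 284 CPM at 3 d and at 473, 470 and 406 CPM at 10 d, 1.62-fold higher (log2 fold change 0.69, SE 0.107, adjusted p = 1.62e-05). miR-450b-5p, 2 edits away from it, was at 43.6, 48.5 and 58.7 CPM against 82, 93.1 and 79.5 CPM, 1.69-fold higher (adjusted p = 0.00155). miR-322-5p, the rodent form of miR-424 and a member of the miR-15/16 seed family, was at 860, 953 and 1024 CPM against 1265, 1371 and 1453 CPM, 1.44-fold higher (adjusted p = 0.00114). All 3 were without overlap. miR-322-3p rose 1.3-fold (adjusted p = 0.019) and lost the call without 10 d replicate 1 (0.0665).

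Members of the miR-30 family, which are among the most abundant miRNAs of these cells, moved in opposite directions. Of 9 arms 2 rose and 2 fell, against 16.7% and 16% of all 269 miRNAs. miR-30a-5p was at 48234, 52122 and 49916 CPM at 3 d and at 67876, 67550 and 68220 CPM at 10 d, 1.36-fold higher (log2 fold change 0.44, SE 0.0913, adjusted p = 0.000635), and miR-30a-3p rose by as much (log2 fold change 0.45, adjusted p = 0.00377). miR-30d-5p was at 18731, 19806 and 18762 CPM against 14826, 14121 and 15161 CPM, 1.3-fold lower (log2 fold change -0.38, SE 0.0844, adjusted p = 0.00126). miR-30e-5p was at 4126, 4965 and 4403 CPM against 3444, 3850 and 3603 CPM, 1.24-fold lower (log2 fold change -0.31, adjusted p = 0.0298). The 3 were each without overlap between the times. miR-30a-5p and miR-30e-5p are 1 edit apart, so their reads are the hardest of the family to assign, and miR-30e-5p lost its call without 3 d replicate 2 (0.15), 10 d replicate 1 (0.111) or 10 d replicate 3 (0.0604).

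In the miR-17-92 cluster and its paralogs, known as promoters of cell growth, 7 of 17 arms fell and 1 rose (median log2 fold change -0.46). Of all 269 miRNAs 16% were called lower and 16.7% higher. Besides miR-92a-3p, the firmest decrease was that of miR-106b-3p, at 680, 625 and 602 CPM at 3 d and at 374, 392 and 355 CPM at 10 d, 1.70-fold lower without overlap (log2 fold change -0.77, SE 0.114, adjusted p = 1.08e-05). miR-18a-5p, miR-20a-5p, miR-92a-1-5p, miR-93-3p and miR-25-3p fell by 0.28 to 0.74 on the log2 scale, each called in 4 or fewer of the 6 fits that leave out 1 library (adjusted p up to 0.146). The abundant arms miR-93-5p (log2 fold change 0.18) and miR-106b-5p (-0.11) were not called. The arm that rose, miR-19a-5p, was rare, with 0, 4 and 3 counts at 3 d and 27, 22 and 10 counts at 10 d. It lost the call without 3 d replicate 1 (0.0526), and as a rare miRNA it was named after its values were seen.

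Of the miR-15/16 family, known for repressing cyclins, 3 of 7 arms fell and 1 rose, against 16% and 16.7% of all 269 miRNAs. The 7 include 3p arms: miR-195-3p and miR-15b-3p, which fell, do not have the seed of miR-16-5p. Of the called miRNAs with that seed, miR-16-5p fell, while miR-497-5p and miR-322-5p (described with its own cluster) rose. miR-16-5p was at 28450, 29482 and 27497 CPM against 20710, 23288 and 25311 CPM, 1.23-fold lower without overlap (log2 fold change -0.30, SE 0.116, adjusted p = 0.0458), and called in 1 of the 6 fits that leave out 1 library (adjusted p up to 0.174). miR-195-3p fell 1.32-fold (adjusted p = 0.00715). miR-15b-3p fell 1.67-fold (adjusted p = 0.0306), was called in 2 of those 6 fits (adjusted p up to 0.123), and had a log2 fold change of -0.0072 in the other deposited count table. miR-497-5p, which has the seed of miR-16-5p, was at 1816, 1766 and 1625 CPM against 2038, 2255 and 2410 CPM, 1.29-fold higher (adjusted p = 0.0144). It lost the call without 3 d replicate 3 (0.0543) or 10 d replicate 3 (0.0608).

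The let-7 family, known for its rise in differentiated cells, had 0 of 19 tested entries higher and 2 lower. Among all 269 miRNAs the shares were 16.7% and 16%. The 19 are not all separate arms, because let-7c-2-3p has the same mature sequence as let-7a-1-3p. In each library the reads of this sequence were counted under 1 name only. The first had 0, 116 and 71 counts at 3 d and 290, 0 and 154 at 10 d. The second had 96, 0 and 0, then 0, 199 and 0. Their separate tests therefore measure no change of either. let-7d-3p, a passenger arm, was at 602, 747 and 740 CPM against 302, 404 and 467 CPM, 1.79-fold lower without overlap (log2 fold change -0.84, SE 0.178, adjusted p = 0.00114), while let-7d-5p had a log2 fold change of -0.03 (adjusted p = 0.826). let-7b-5p was at 7246, 4763 and 6614 CPM against 3423, 2841 and 4781 CPM, with overlap between the groups (log2 fold change -0.75, SE 0.208, adjusted p = 0.0093). It lost the call without 3 d replicate 1 (0.0552) or 10 d replicate 2 (0.0509), and its sequence is 1 edit from that of let-7c-5p.

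The clusters of miR-23, miR-27 and miR-24 had 3 of 10 arms higher and 1 lower, against 16.7% and 16% of all 269 miRNAs. The increases came from the cluster of miR-23a, miR-27a and miR-24-2. miR-23a-3p was at 344, 403 and 434 CPM against 532, 631 and 552 CPM, 1.45-fold higher without overlap (adjusted p = 0.00231). miR-23b-3p, 1 edit away, had a log2 fold change of -0.15 (adjusted p = 0.264). miR-24-2-5p (log2 fold change 0.40, adjusted p = 0.0221) was called in 3 of the 6 fits that leave out 1 library (adjusted p up to 0.13). miR-27a-3p (0.28, adjusted p = 0.0495) was called in 1 (up to 0.158), and miR-27b-5p, the arm that fell (-0.35, adjusted p = 0.0179), in 2 (up to 0.104). In the group of miR-99, miR-100 and miR-125, which lie beside let-7 genes, 2 of 8 arms rose, miR-100-5p (described with the vector line) and the rare miR-125b-2-3p (2, 0 and 0 counts against 16, 8 and 6; named after its values were seen), and 2 fell. The call of miR-125b-2-3p held in 2 of the 6 fits that leave out 1 library (adjusted p up to 0.11) and not in the other count table (0.082). The arms of this group that fell were miR-99b-3p (1.63-fold, adjusted p = 0.000216) and miR-125a-3p (1.58-fold, adjusted p = 0.00114). Their abundant 5p arms had log2 fold changes of 0.34 and 0.13 and were not called.

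The counts of the next lists stand against 16.7% called higher and 16% called lower of all 269 miRNAs. Of the Clcn5 cluster, 2 of 7 arms rose, miR-362-3p and miR-500-3p. The call of miR-500-3p (log2 fold change 0.50, adjusted p = 0.0403) held in 1 of the 6 fits that leave out 1 library (adjusted p up to 0.162). The partner arm miR-362-5p had a log2 fold change of 0.33 (adjusted p = 0.404). Among 4 p53-induced miRNAs miR-192-5p rose. Its cluster partner miR-194-5p had a log2 fold change of 0.28 (adjusted p = 0.0926), miR-34a-5p one of -0.28 (0.22) and miR-34c-5p one of -0.30 (0.17). miR-181c-5p (0.35, adjusted p = 0.00943) was the 1 called arm of 5 in the miR-181 family, and lost the call without 3 d replicate 2 (0.0645) or 10 d replicate 1 (0.0688). Of 3 miRNAs that bypass Microprocessor, 2 fell, miR-484 and miR-320-3p (log2 fold change -0.51, adjusted p = 0.0254), the latter called in 2 of the 6 fits that leave out 1 library (adjusted p up to 0.115). In the joint list of miR-130, miR-301, miR-148 and miR-152 1 of 10 arms fell, miR-148b-5p (log2 fold change -0.50, adjusted p = 0.00488). The miR-191 hairpin gave miR-191a-5p, lower by 1.29-fold (adjusted p = 0.0108), a call lost without 3 d replicate 3 (0.0513) or 10 d replicate 3 (0.0956), as 1 of 4 arms of miR-191 and miR-425. Among the Hox-cluster miRNAs 0 of 5 arms were called, with 1 at an unadjusted p under 0.05. Of the miR-26 family 0 of 3, of miR-103 and miR-107 0 of 2 and of the inflammation-linked miRNAs 0 of 2 were called (0, 0 and 1 at an unadjusted p under 0.05).

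**Figure D2:**
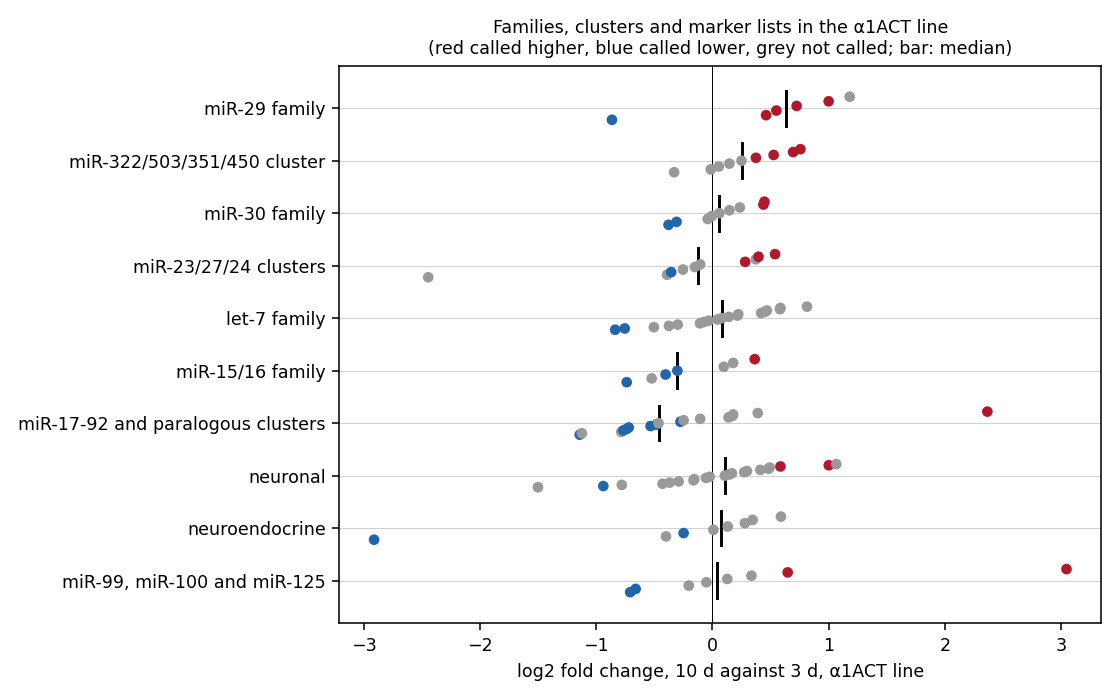
Log2 fold change of each tested arm, 10 d against 3 d in the α1ACT line, for 10 families, clusters and marker lists. Points are arms (red called higher, blue called lower, grey not called) and bars are list medians, which lie at 0.64 for the miR-29 family and at -0.46 for the miR-17-92 clusters.

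When counts were summed over miRNAs with the same seed, 62 of 198 seeds changed (31.3%), 35 higher (17.7%) and 27 lower (13.6%) by the same test. Of 36 seeds shared by more than 1 miRNA, 8 changed. The miR-29 seed went from 5595 ± 409 CPM to 8111 ± 595 CPM (log2 fold change 0.54, SE 0.121, adjusted p = 0.00123), and the miR-450 seed from 337 ± 32.2 CPM to 558 ± 37.7 CPM (log2 fold change 0.73, adjusted p = 5.16e-05). The seed of miR-92a-3p, miR-25-3p and 3 others went from 10476 ± 358 CPM to 7918 ± 316 CPM (log2 fold change -0.40, SE 0.102, adjusted p = 0.00299). The seed of miR-30a-5p, miR-30e-5p and 2 others rose by 0.40 on the log2 scale (adjusted p = 0.00323), although miR-30e-5p fell. Only miRNAs with a sequence enter these sums. The abundant miR-30d-5p, which fell (log2 fold change -0.38), had none, so this sum does not cover the whole miR-30 family. The 5 members with the seed of miR-16-5p, among them miR-322-5p and miR-497-5p, summed to a log2 fold change of -0.18 (adjusted p = 0.239), the 9 with the let-7 seed to 0.03 (adjusted p = 0.864), and the 5 with the seed of miR-93-5p and miR-20a-5p to 0.17 (adjusted p = 0.225).

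The pair with the miR-193 seed moved in opposite directions. miR-193a-3p had 4, 8 and 3 counts at 3 d and 47, 39 and 30 at 10 d, or 2.25 ± 1.06 CPM and 12 ± 2.78 CPM, a log2 fold change of 2.35 (SE 0.426, adjusted p = 0.00016). It lies under the limit of 10 CPM for naming and was singled out after its values were seen. miR-193b-3p went the other way, at 31.1, 18.2 and 25.8 CPM against 18.2, 10.7 and 13.5 CPM (log2 fold change -0.81, SE 0.265, adjusted p = 0.0218). The sum of the pair was 27.7 ± 4 CPM at 3 d and 27.4 ± 3.15 CPM at 10 d (log2 fold change -0.021, adjusted p = 0.95). The 2 sequences differ by 4 edits.

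For 86 miRNA names, with precursor numbers dropped, exactly 1 arm of each side (5p and 3p) was tested. These names are called hairpins here, although some, such as miR-92a, cover more than 1 hairpin. The 86 include let-7a and let-7c, whose 3p entries have the same sequence, so that 1 mature miRNA enters these counts under 2 names. Both arms were called for 10: 5 both higher (miR-29c, miR-30a, miR-322, miR-101a and miR-374), 3 both lower (miR-92a, miR-345 and miR-375) and 2 in opposite directions (miR-29b and miR-151). In 38 hairpins 1 arm was called and in 38 neither, and the 2 arms had the same sign in 49. Taken singly, 23 of the 86 less abundant arms and 35 of the 86 more abundant arms were called, against 32.7% of all 269 miRNAs. Whether these counts of hairpins exceed those of arms that move independently was not tested. Of the 10 with both arms called, miR-29c and miR-30a kept both calls in each fit that leaves out 1 library. miR-345-5p was called in 0 of these 6 fits (adjusted p 0.0559 to 0.11), and the weaker arm was called in 1 for miR-101a, miR-151 and miR-375, in 2 for miR-92a and miR-29b, in 3 for miR-374 and in 5 for miR-322. The difference between arms was not tested. Of the less abundant arms 9 rose and 14 fell (median log2 fold change -0.17), and of the more abundant arms 19 rose and 16 fell (0.06). The rare arm miR-128-1-5p fell, at 24, 21.2 and 23.8 CPM against 13.2, 12.7 and 9.63 CPM (log2 fold change -0.94, adjusted p = 0.00434), whereas the brain-enriched miR-128-3p was at 1275 ± 69.1 CPM and 1373 ± 72.6 CPM (log2 fold change 0.11, adjusted p = 0.375). miR-324-5p and miR-338-5p, partners of called arms, had log2 fold changes of -0.48 (adjusted p = 0.179) and 0.38 (adjusted p = 0.0726).

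Of 21 tested arms of neuronal miRNAs 2 rose and 1 fell, against 45 and 43 of all 269. The 2 were miR-153-3p and miR-138-5p, the latter a miRNA of dendrites at 1122, 1048 and 1058 CPM at 3 d and at 1628, 1584 and 1632 CPM at 10 d, 1.5-fold higher without overlap (log2 fold change 0.59, SE 0.112, adjusted p = 0.00031). miR-137-3p was just outside the threshold (log2 fold change 0.41, adjusted p = 0.0501). miR-124-3p, the defining neuronal miRNA, was among the 7 arms of that list with too few counts to test, none with more than 13 counts in any of the 6 libraries. Of 8 neuroendocrine arms 2 fell, miR-375-3p and the rare miR-375-5p, which had 19, 4 and 11 counts against 5, 2 and 0 and was named after its values were seen. miR-183-5p and miR-96-5p had log2 fold changes of 0.28 (adjusted p = 0.0566) and 0.59 (adjusted p = 0.0656).

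Markers of other cell types were not all level. Epithelial markers, 4 of 10 tested, summed to between 400 and 457 CPM per library at 3 d and between 350.7 and 408 CPM at 10 d. Among them miR-141-3p rose and miR-200b-3p fell, the latter with 17, 16 and 25 counts against 12, 5 and 3 (log2 fold change -2.23, adjusted p = 0.00114; named after its values were seen). Mesenchymal and endothelial markers, 4 of 8 tested, summed to between 601 and 622 CPM and between 398 and 477 CPM. The member that fell was miR-143-3p, at 482, 515 and 485 CPM against 345, 291 and 334 CPM (log2 fold change -0.61, adjusted p = 0.0374), called in 0 of the 6 fits that leave out 1 library (adjusted p up to 0.101). Its partner miR-145 had at most 2 counts in a library. Glial markers, 4 of 5 tested, summed to between 393 and 433 CPM and between 680 and 841 CPM, mostly miR-338-3p. Of the blood-cell and serum markers 1 of 7 could be tested, miR-142-5p, with 0, 8 and 0 counts against 43, 14 and 16; it was called (adjusted p = 0.0218) in this fit and in 2 of the 6 that leave out 1 library, and was named after its values were seen. Muscle markers (0 of 1), the Dlk1-Dio3 cluster (0 of 6) and miR-221 with miR-222 (0 of 2) were too low to test, with at most 2 counts in a library. A change in the number of cells of a kind and a change in RNA per cell cannot be told apart here, and the part of other cells in the results was not tested.

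The levels of 6 h and 24 h place the step in time. The comparisons of 3 d with 24 h and of 10 d with 6 h share libraries with it, so they are no independent evidence, and their fold changes are given side by side. miR-153-3p was at 178 ± 8.58 CPM at 6 h, 199 ± 5.7 CPM at 24 h, 121 ± 7.54 CPM at 3 d and 243 ± 16.2 CPM at 10 d, so that it was lowest at 3 d and highest at 10 d. Its log2 fold change was -0.71 for 3 d against 24 h and 0.45 for 10 d against 6 h. miR-92a-3p ran the other way, at 2143 ± 162, 1492 ± 61.5, 2371 ± 150 and 1074 ± 61.5 CPM, with 0.67 for 3 d against 24 h and -1.0 for 10 d against 6 h. miR-484 was flat to 3 d, at 170 ± 9.82, 156 ± 25.4 and 157 ± 16.9 CPM, and then 83.6 ± 9.38 CPM at 10 d. miR-362-3p stood at 31.6 ± 11.3 CPM at 6 h and 28.6 ± 3.83 CPM at 10 d, with 12.4 ± 1.61 CPM at 3 d between them.

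The step from 6 h to 24 h uses other libraries, and 28 of 269 miRNAs were called in it (10.4%). Of the 45 miRNAs that rose after 3 d, 36 also had a positive log2 fold change from 6 h to 24 h, and of the 43 that fell, 28 had a negative one, against the same sign in 158 of all 269 (58.7%). The correlation of the 2 steps over the 269 miRNAs was weak (Pearson's r = 0.18, Spearman's rho = 0.22), and 9 miRNAs were called in both in 1 direction and 3 in opposite directions.

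**Figure D3:**
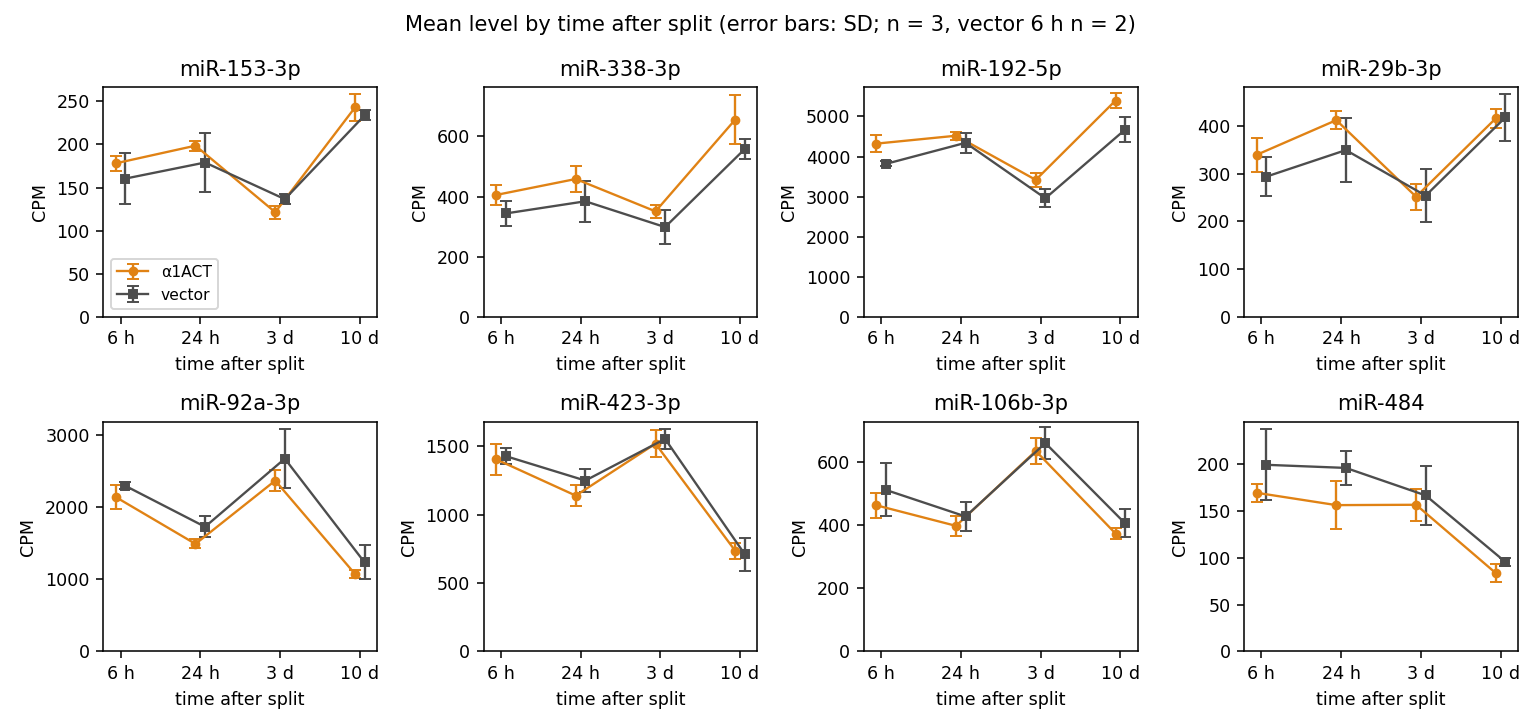
Mean CPM of 4 increases (top) and 4 decreases (bottom) at the 4 culture times, with SD bars (n = 3; vector at 6 h, n = 2), orange for the α1ACT line and grey for the vector line. The increases dip at 3 d and are highest or nearly so at 10 d, and miR-92a-3p, miR-423-3p, miR-106b-3p and miR-484 are lowest at 10 d in both lines.

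The same step in the vector line, whose libraries are all different, called 68 of 269 miRNAs (25.3%), 35 higher (13%) and 33 lower (12.3%), or 79 and 13 with upper-quartile factors and 24 and 45 with library totals alone. Vector 3 d replicate 1 was shallow, with 448557 counts in total, against 2784837 to 4341194 in the other vector libraries of 3 d and 10 d. Without it 63 miRNAs were called, 46 of them shared with the α1ACT line in the same direction. The count of calls was 44 without vector 10 d replicate 3, and 44 with 2 vector columns exchanged (replicate 2 of 6 h and of 10 d, whose names look exchanged between the deposited tables). With the names used here, the median coefficient of variation over 222 miRNAs was 9.31% in vector 6 h (n = 2) and 10.4% in vector 10 d (n = 3). It was 15.3% in vector 3 d and 9.24% to 11.9% in the other groups. Which deposited table has the right names was not tested. Of the 68, 51 were also called in the α1ACT line in the same direction, which is 58.0% of the calls of the α1ACT line and 75% of those of the vector line, and 0 in the opposite one. With the 2 columns exchanged 22 were shared (31.9% of the calls of the α1ACT line and 50% of those of the vector line), 31 in the Chimira counts (38.3% and 59.6%), and 34 without vector 10 d replicate 3 (38.6% and 77.3%). Of the 88 miRNAs called in the α1ACT line, 86 had the same sign in the vector line, against 223 of all 269 (82.9%). Over the 269 miRNAs the steps had Pearson's r = 0.70 and Spearman's rho = 0.78, a description over miRNAs of the same libraries. miR-92a-3p fell by 1.11 on the log2 scale in the vector line (adjusted p = 6.91e-08), miR-423-3p by 1.13 (adjusted p = 2.11e-08) and miR-328a-3p by 1.03 (adjusted p = 2.14e-06). miR-192-5p rose by 0.66 (adjusted p = 2.81e-06), miR-338-3p by 0.88 (adjusted p = 2.78e-05) and miR-153-3p by 0.78 (adjusted p = 5.58e-05).

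The test of the difference between the lines called 0 of 269 miRNAs by edgeR (0%), with 12 at an unadjusted p under 0.05; limma-voom called 0 and DESeq2 called 1, miR-100-5p. miR-100-5p, a miRNA known to target mTOR, was at 46.7, 67.6 and 72.8 CPM at 3 d and at 99.6, 104 and 88.2 CPM at 10 d in the α1ACT line. In the vector line it was at 62.8, 50.6 and 49.8 CPM and at 231, 122 and 232 CPM, the 62.8 CPM resting on 28 counts in the shallow 3 d replicate 1. The increase was without overlap in each line, with a log2 fold change of 0.65 (SE 0.224, adjusted p = 0.0298) in the α1ACT line and 1.89 (adjusted p = 2.65e-06) in the vector line, a difference of -1.25 (SE 0.322, unadjusted p = 0.000776, adjusted p = 0.209). The adjusted p of the difference was 0.0064 without vector 10 d replicate 2, the library at 122 CPM and 1 of the 2 columns in doubt, 0.0471 without α1ACT 3 d replicate 1, 0.0255 by DESeq2, 0.0524 with the 2 columns exchanged, and between 0.125 and 0.927 in the other settings. The increase in the α1ACT line lost its call without 3 d replicate 1 (0.139), 10 d replicate 1 (0.0656) or 10 d replicate 2 (0.0784). In the α1ACT line its level of 10 d, 97.4 ± 8.36 CPM, was below that of 6 h, 327 ± 56.9 CPM.

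The next 4 miRNAs by that test, among those with at least 10 CPM, had unadjusted p-values from 0.00779 to 0.0295 and did not pass the adjustment (adjusted p = 0.891). miR-33-5p, encoded within the sterol regulator gene Srebf2, rose in the α1ACT line from 80.5, 71.9 and 71.8 CPM to 95.4, 128 and 108 CPM (log2 fold change 0.56, SE 0.154, adjusted p = 0.00715) and had a log2 fold change of -0.07 in the vector line (adjusted p = 0.784). miR-210-5p had log2 fold changes of 1.16 and 0.43, miR-532-5p of 0.25 and -0.36, and miR-501-3p of 0.09 and 1.14. The call of a miRNA in 1 line and not in the other is therefore not a measured difference between the lines.

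**Figure D4:**
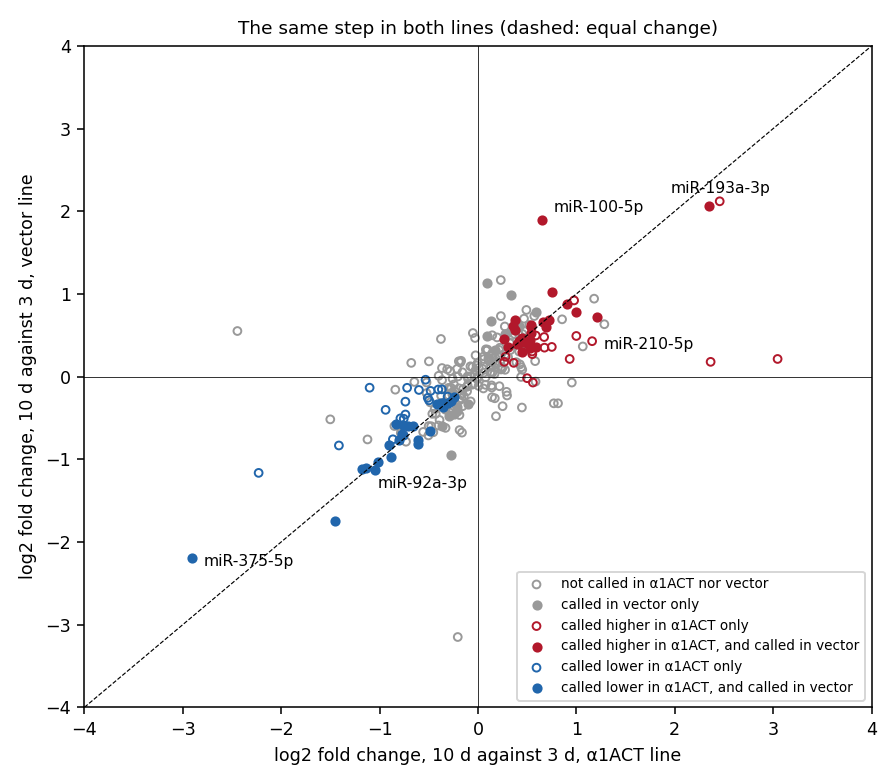
Log2 fold change of 10 d against 3 d in the α1ACT line (x axis) and in the vector line (y axis) for 269 miRNAs; red and blue mark calls of the α1ACT line, filled points calls of the vector line, and the dashed line equal change. Of the 88 miRNAs called in the α1ACT line 86 have the same sign on both axes, and miR-100-5p lies far above the dashed line, at 0.65 and 1.89.

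Base composition moved with the step. Mature sequences of the miRNAs that rose had a median of 45.5% G and C bases and those that fell 54.5%, against 47.8% over all tested (248 of 269 had a sequence). Under 40%, 13 of 49 miRNAs rose and 2 fell; at 60% or more, 1 of 36 rose and 11 fell. The 1 that rose was miR-210-5p, at 63.6%. Over the 248 miRNAs r was -0.36 in the α1ACT line and -0.41 in the vector line. The count-weighted mean was 45.9% ± 0.323 at 3 d and 45.5% ± 0.12 at 10 d (SD, n = 3; exact two-sided permutation p = 0.1, the smallest that 3 against 3 allows).

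With a correction for base composition, chosen after seeing the data, 74 of 248 miRNAs were called, 41 higher and 33 lower, and 54 of the 77 earlier calls that have a sequence were among them. miR-153-3p, miR-338-3p, miR-192-5p, miR-92a-3p, miR-484 and miR-106b-3p were among these 54, at corrected log2 fold changes of 0.77, 0.72, 0.62, -0.99, -0.56 and -0.42. The corrected value was -0.29 for miR-324-3p (adjusted p = 0.18), -0.34 for miR-671 (0.0645), -0.68 for miR-760-3p (0.0758), -0.51 for miR-128-1-5p (0.0925) and -0.36 for miR-99b-3p (0.0532), so these decreases were no longer called. In all, 23 calls were lost, 10 of increases and 13 of decreases. Of the 12 largest decreases 10 had a sequence and 6 of these lost the call, the other 2 being miR-193b-3p (-0.63, adjusted p = 0.0588) and miR-345-3p (-0.57, adjusted p = 0.063). Of the 12 largest increases 11 had a sequence and 1 lost the call, miR-141-3p (0.83, adjusted p = 0.0707). In the miR-29 family miR-29a-3p (0.31, adjusted p = 0.0532) and miR-29c-3p (0.32, adjusted p = 0.083) lost it. Named after their values were seen, miR-374-3p went from 0.55 to 0.16, miR-190a-5p from 0.59 to 0.11, miR-421-3p from 0.27 to 0.013 and miR-615 from -0.76 to -0.039. Whether base composition accounts for any change was not tested.

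**Figure D5:**
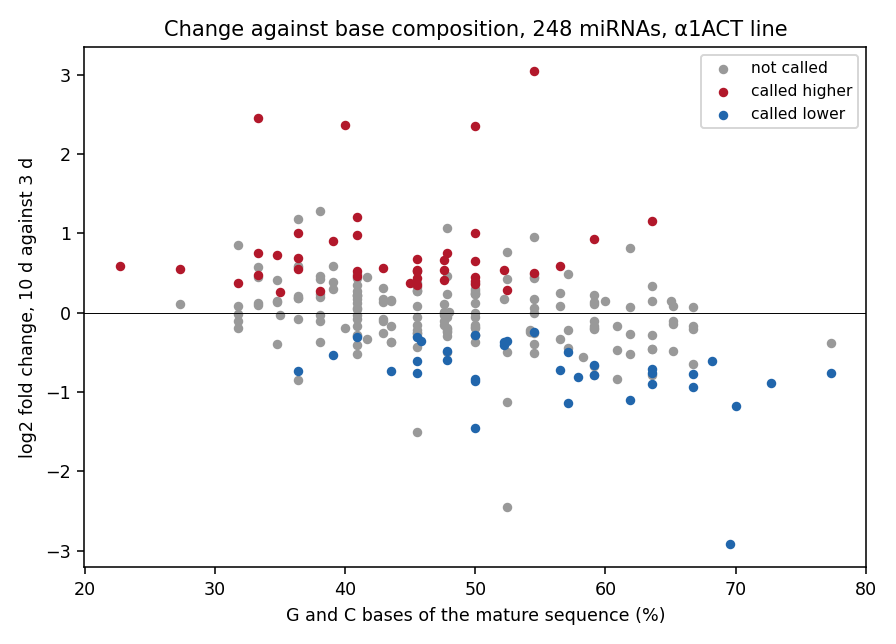
Log2 fold change of 10 d against 3 d in the α1ACT line (y axis) against the percentage of G and C bases in the mature sequence (x axis) for 248 miRNAs, red called higher, blue called lower, grey not called. At 60% or more, 11 of 36 miRNAs were called lower and 1 higher.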

How the data were processed

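Libraries were made from a miRNA-enriched RNA fraction for Illumina sequencing, per the labels' protocols. The authors deposited whole-number read counts per mature miRNA, not normalized, in 2 tables that their names tie to sRNAbench (413 entries, used here) and Chimira (627 entries, an alternative). edgeR is named in the submitters' processing notes. The sources used here name no aligner, build or miRBase release. Each table has 12 further columns of none of the 23 samples, left unused, and 1 unnamed entry with 0% of counts was left out.

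Counts were fitted with edgeR 4.0.16 in R 4.3.3 (filterByExpr, TMM, robust quasi-likelihood, 1 mean per group over all 23 libraries). Benjamini-Hochberg adjusted p-values under 0.05 were calls. Standard errors come from the fold change and its F value. Counting errors cover reads, not molecules. The 18 alternatives in the α1ACT line were the Chimira table, 3 scalings, 2 filters, DESeq2 1.42.0, limma-voom (limma 3.58.1), a replicate block, the compared groups alone, an exchange of 2 vector columns, each library left out, and a base-composition correction added later. Comparing the deposited counts by library, 21 of 23 names matched, all 6 of the main comparison among them; the exception was a pair of vector columns (replicate 2 of 6 h and of 10 d) that looked exchanged. No pair of replicates agreed within sampling noise (chi-square per degree of freedom 28.7 to 215).

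Sequences and hairpin genes came from RefSeq tables of GRCr8, where 381 of 413 entries matched by name; hosts ignore strand. The rule named, among miRNAs with at least 10 CPM, the 12 largest called changes in each direction, their other arms, the 10 most abundant, up to 4 of each list by p, 5 of the line difference and 5 seed sums in each direction. Members and lists were chosen with earlier results of these data known, and outside the rule miR-23b-3p was named with its values seen. In simulated data for this comparison over 269 miRNAs, 26.5% of 1.3-fold, 51.9% of 1.5-fold and 78.1% of 2-fold changes were recovered, and 3.55% of calls were false. The counts were drawn with the spread that the same fit had estimated, and with equal means in all groups but α1ACT 10 d. No outlying library, shift with base composition or scaling error was put in, so these rates need not hold for the real data.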

Additional observations from a re-analysis of the deposited data

Results flagged for a closer look

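The Chimira count table holds 215 miRNA entries with no namesake in the main table, which the comparisons above do not use. Of these 13 had enough counts to be tested in the α1ACT line, and 3 passed the same edgeR test (Benjamini-Hochberg adjusted p under 0.05) between 3 d and 10 d, against 81 of all 305 tested entries of that table (26.6%). They are listed because they lie outside the main measurement, not because their share is high. miR-30b-5p, of the miR-30 family, was at 1018, 1198 and 1016 CPM at 3 d and at 1330, 1487 and 1686 CPM at 10 d (log2 fold change 0.478, SE 0.108, adjusted p = 0.00262), without overlap. miR-335 was at 2146, 2801 and 2848 CPM at 3 d and at 3001, 4459 and 3939 CPM at 10 d (log2 fold change 0.548, SE 0.145, adjusted p = 0.00889), again without overlap. miR-149-3p was rare, at 7.64, 8.08 and 1.48 CPM at 3 d and at 1.14, 2.65 and 1.96 CPM at 10 d, with overlapping groups (log2 fold change -1.7, SE 0.604, adjusted p = 0.039). The vector line had log2 fold changes of 0.20 for miR-30b-5p (adjusted p = 0.203), 0.68 for miR-335 (adjusted p = 0.00363) and -0.29 for miR-149-3p (adjusted p = 0.734), and the difference between the lines was not called for any of the 3 (adjusted p = 0.632, 0.895 and 0.677).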

How the results depend on the processing

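The count of changed miRNAs in the α1ACT line stayed within 1.5 times of 88 in each of the 18 alternatives, between 61 without 10 d replicate 1 and 98 by limma-voom; it ran from 61 to 71 with 1 library left out. The Chimira table gave 81, 72 of them shared. Replicate numbers showed no clear pairing of the samples. Correlations of deviations between same-numbered libraries were -0.42, -0.53 and 0.58, and not every library correlated best with its own number. With 3 replicates per group these correlations depend on each other, so they cannot exclude a pairing. The replicate block gave 96 calls. In the vector line the count fell from 68 to 44 with the pair of vector columns exchanged, and to between 44 and 66 with 1 library left out (44 without 10 d replicate 3). The difference between the lines had 0 calls, 1 by DESeq2, and 0 to 1 with 1 library left out: 1 without α1ACT 3 d replicate 1 and 1 without vector 10 d replicate 2, miR-100-5p each time. Seed sums gave 43 to 55 calls with 1 library left out. Signs changed for 6 named miRNAs that were not called: miR-10b-5p (-0.028 with the 10 CPM filter, -0.16 to 0.29 without 1 library), miR-501-3p (-0.018, and -0.24 to 0.37), let-7d-5p (0.019 in the Chimira table, 0.083 with upper-quartile factors, -0.086 to 0.014 without 1 library), miR-27b-3p (0.013) and miR-106b-5p (0.014) with upper-quartile factors, and miR-21-5p (-0.047 with the base-composition correction). The cause was not tested. With the fits' precision, changes under 1.5-fold are often missed, and rare miRNAs rest on few counts.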
